A study of Mus musculus with 2 samples.

Results

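The subject is 10 mouse genes for the uptake, storage, reduction and export of iron, measured by RNA sequencing in cultured Nestin+ mesenchymal stromal cells from heart and from bone marrow. They are Tfrc and Slc11a2, which import iron, the metalloreductase family genes Steap1, Steap2, Steap3 and Steap4, the ferritin genes Fth1 and Ftl1, and Slc40a1 and Cp, which serve export. The genes were selected by their shared function with their RPKM values in these 2 libraries already known, so their ratios are a description and no test is given. All 10 were found by name among the 49492 gene symbols of the deposited tables. The medium of the heart cells held EGF and bFGF (20 ng/ml each), cardiotrophin-1 at 4 ng/ml and the supplements N2, which contains transferrin, and B27. Bone marrow cells had been grown in a different, earlier published medium. Both cultures came from C57BL/6 mice aged 7 days that carried a Nestin-GFP transgene, a green fluorescent reporter for cells that use the Nestin gene, and both were at passage 10. Each tissue gave 1 library, so there is no replicate spread, and tissue, medium and culture cannot be told apart.

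Iron reaches most cells bound to transferrin, which the transferrin receptor carries into endosomes. There a metalloreductase of the STEAP family reduces ferric to ferrous iron, and DMT1 moves it into the cytosol. Iron that is not used is stored in ferritin, a shell of heavy and light chains, or leaves through the exporter ferroportin and is oxidized outside by ferroxidases such as ceruloplasmin. Iron regulatory proteins bind hairpins called iron-responsive elements when iron is scarce. A bound hairpin in the 5′ UTR blocks translation, and bound hairpins in the 3′ UTR stabilise the mRNA.

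The libraries held 64872683 reads for heart and 53999963 for bone marrow, recovered from the deposited RPKM (reads scaled by gene length and library size). Of 9 mesenchymal stromal markers, 8 in heart and 7 in bone marrow reached 1 RPKM, but their levels did not all match. Pdgfrb was level, at 139 RPKM in heart and 133 RPKM in bone marrow, as were Col1a1 and Col1a2. Thy1 stood at 16.7 RPKM in heart and 0.0603 RPKM in bone marrow, Eng at 33.9 RPKM in heart and 0.576 RPKM in bone marrow, and Col3a1 at 1388 RPKM in heart and 129 RPKM in bone marrow. Nt5e was lower in heart, at 0.225 RPKM against 1.59 RPKM in bone marrow. The part of these differences between the cultures in the results on iron genes was not tested. Markers of other cell types that handle much iron were low. The 8 macrophage markers summed to 1.75 RPKM in heart and 1.63 RPKM in bone marrow, with 1 of 8 at or above 1 RPKM in each library (Lyz2, at 1.08 RPKM in heart and 1.05 RPKM in bone marrow), and Ptprc, Adgre1 and Spi1 were listed at 0 in heart. The 9 erythroid markers summed to 0.369 RPKM in heart and 0.216 RPKM in bone marrow, none reaching 1 RPKM, with Hba-a1, Hbb-bs and Hbb-bt among those listed at 0 in both. The 6 hepatocyte markers summed to 0.013 RPKM in heart and 0 RPKM in bone marrow. Of 7 cardiomyocyte markers none reached 1 RPKM, and of 6 endothelial markers none did in heart and 1, Vwf, did in bone marrow.

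The iron-responsive elements are shown first, because a search found them in 4 of the 10 genes. Of these 4, Tfrc and Slc40a1 differed at least 2-fold between the libraries under every setting tried, in opposite directions. Ftl1 lay near 2-fold and Fth1 within it. The search looked in GENCODE M21 protein-coding transcripts for an unpaired C, 5 stem bases, the loop CAGTGN (with A, C or T last) and 5 bases that pair with the stem, G-U pairs allowed. It found the pattern in 222 of 21877 genes (1.01%). Capitals mark the unpaired C and the 6-base loop, and all coordinates are GRCm38. In Tfrc the search found 4 in the 3′ UTR on the plus strand, at chr16:32631218-32631247, chr16:32631597-32631626, chr16:32631662-32631691 and chr16:32631709-32631738. Fth1 has 1 in its 5′ UTR at chr19:9982731-9982760 (plus strand), Ftl1 has 1 at chr7:45459779-45459808 (minus strand) and Slc40a1 has 1 at chr1:45925465-45925494 (minus strand), both also in the 5′ UTR.
Tfrc element 1: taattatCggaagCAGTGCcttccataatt
Tfrc element 2: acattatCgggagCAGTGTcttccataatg
Tfrc element 3: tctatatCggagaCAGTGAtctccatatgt
Tfrc element 4: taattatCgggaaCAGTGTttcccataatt
Fth1 element: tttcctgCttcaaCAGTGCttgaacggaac
Ftl1 element: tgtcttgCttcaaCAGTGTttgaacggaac
Slc40a1 element: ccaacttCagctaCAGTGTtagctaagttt
The stem of the ferritin elements is the same in both chains, while that of Slc40a1 has other bases. No transcript of Slc11a2, Cp or a STEAP gene held this exact pattern, which says nothing about elements of another shape. The counts for Tfrc, Fth1, Ftl1 and Slc40a1 likewise cover this exact pattern only.

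The importers went opposite ways. Tfrc, which encodes the transferrin receptor, stood at 2.38 RPKM in heart cells, from 953 reads, and at 16.3 RPKM in bone marrow cells, from 5432 reads. It was 6.85-fold lower in heart, and the 95% interval for counting error ran from 6.39 to 7.34. The log2 ratio of heart over bone marrow, taken here and below on RPKM + 1, was -2.35. Tfrc is the gene in whose 3′ UTR the search found 4 elements. Slc11a2, which encodes the ferrous iron transporter DMT1, stood at 14.6 RPKM in heart, from 6011 reads, and at 7.90 RPKM in bone marrow, from 2712 reads. Its ratio of 1.84 (interval 1.76 to 1.93) exceeded counting error but not the 2-fold rule. Within a library, Slc11a2 was 6.14 times the level of Tfrc per length in heart and 0.486 times in bone marrow.

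**Figure D1:**
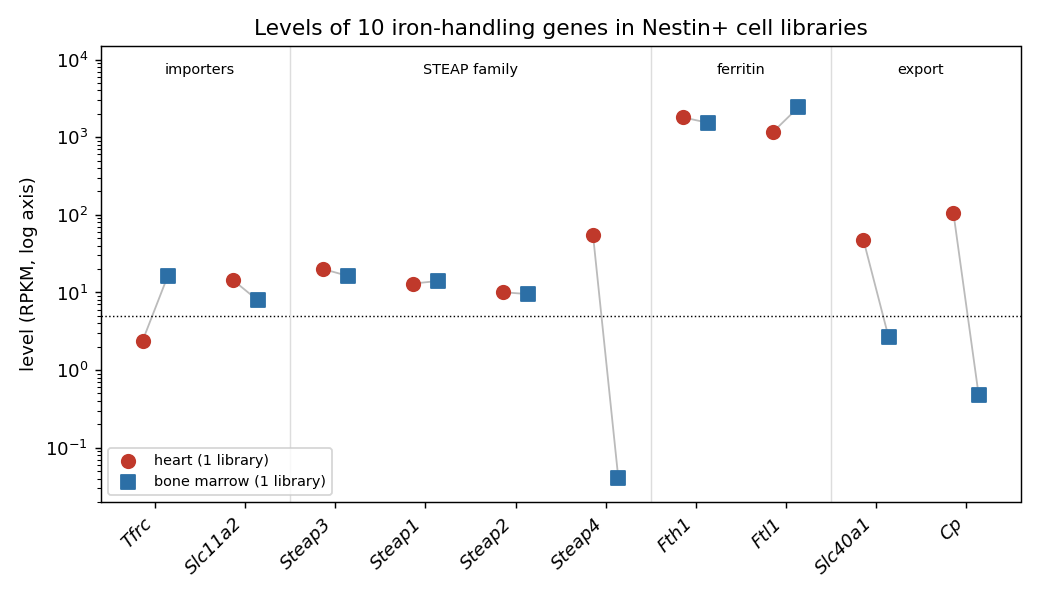
Level of each gene in RPKM on a log axis, with heart as circles on the left and bone marrow as squares on the right of each pair and 1 library per symbol. Steap4 and Cp are the farthest apart, with Steap4 at 54.4 RPKM in heart against 0.0411 RPKM in bone marrow and Cp at 105 RPKM in heart against 0.474 RPKM in bone marrow, and Steap1, Steap2 and Steap3 lie level between 9.53 and 20.1 RPKM. The dotted line marks 5 RPKM.

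Ferritin RNA was among the most abundant of both libraries, and its 2 chains differed in direction. Fth1, the heavy chain with the ferroxidase site, stood at 1801 RPKM in heart, from 101187 reads, and at 1530.4 RPKM in bone marrow, from 71567 reads, a ratio of 1.18 (1.17 to 1.19). Ftl1, the light chain that aids the growth of the iron core, stood at 1177 RPKM in heart, from 102344 reads, and at 2440.02 RPKM in bone marrow, from 176560 reads. Ftl1 was 2.07-fold lower in heart (2.06 to 2.09). It ranked 19th by RPKM in heart and 7th in bone marrow, and Fth1 11th in heart and 14th in bone marrow.

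The order of the chains by RPKM was therefore reversed between the libraries. That order rests on the gene lengths used. By reads, Ftl1 lay above Fth1 in both libraries, but the Fth1 reads rest on an inferred length. Of 2 lengths that fitted Fth1, the smaller was taken, and the longer would give it more reads. In heart, where the reads of the 2 genes were close, the order by reads is therefore not settled. Ftl1 had 102344 reads and Fth1 101187 in heart, and Ftl1 had 176560 and Fth1 71567 in bone marrow. Per length, Fth1 was 1.53 times Ftl1 in heart and 0.627 times Ftl1 in bone marrow, a 2.44-fold difference that no scaling between libraries can change. Both chains together made up 1.13% of the RPKM sum in heart and 1.41% in bone marrow. Ftl1 lies at the edge of the 2-fold rule, and with the median ratio of abundant genes set to 0 its log2 ratio was -0.90 in place of -1.05. Ferritin genes have many near-identical copies. Of 14 other rows named as ferritin genes or copies, 11 were listed at 0 in both libraries, and the highest, Ftl1-ps1, stood at 4.63 RPKM in heart and 11.7 RPKM in bone marrow. Reads shared among copies make the ferritin values uncertain, and the part of such reads in the Ftl1 difference was not tested.

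Both export genes were far higher in heart cells. Slc40a1, which encodes ferroportin, stood at 47.9 RPKM in heart, from 21011 reads, and at 2.66 RPKM in bone marrow, from 971 reads. Its ratio was 18.0 (16.9 to 19.2) and its log2 ratio 3.74. Cp, which encodes the copper-carrying ferroxidase ceruloplasmin, had 65120 reads in heart and 245 in bone marrow. That is 105 RPKM in heart and 0.474 RPKM in bone marrow, 221-fold higher in heart (195 to 252) with a log2 ratio of 6.17. Set against the receptor, Slc40a1 was 20.2 times Tfrc per length in heart and 0.164 times Tfrc in bone marrow, a 123-fold difference in that ratio. Macrophages and hepatocytes are known sources of ferroportin and ceruloplasmin RNA. Their summed marker levels, given above, were similar in both libraries for macrophages and at or near 0 for hepatocytes, and the part of other cell types in these ratios was not tested.

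Only 1 of the 4 STEAP genes set the libraries apart by 2-fold under the settings tried. Steap4, a reductase of iron and copper known from fat cells and from inflammation, stood at 54.4 RPKM in heart, from 11143 reads, and at 0.0411 RPKM in bone marrow, from 7 reads. The ratio was 1325 and its log2 ratio 5.73, with counting limits of 643 and 3297 that are wide because of those 7 reads. Steap3, the endosomal ferrireductase of red cell precursors, stood at 20.1 RPKM in heart and 16.3 RPKM in bone marrow, a ratio of 1.23 (1.19 to 1.28). Steap2, another reductase of iron and copper, stood at 10.1 RPKM in heart and 9.53 RPKM in bone marrow, a ratio of 1.06 (1.02 to 1.09). Steap1, which lacks the reductase domain of its relatives, stood at 13.0 RPKM in heart and 14.1 RPKM in bone marrow. Its ratio of 0.925 had an interval of 0.850 to 1.01, and its sign turned with the median ratio or the upper quartile used for scaling (log2 ratios of 0.034 and 0.020 in place of -0.11).

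The makeup of the family differed accordingly. Steap4 gave 55.8% of the summed STEAP RPKM in heart and 0.103% in bone marrow. Steap3, the leading member in bone marrow, gave 20.6% of the sum in heart and 40.9% in bone marrow. The sum itself was 97.6 RPKM in heart and 40.0 RPKM in bone marrow. Steap2 and Steap1 are neighbours on chromosome 5, 41.7 kb apart, Steap4 lies 2211 kb beyond Steap1 on the same chromosome, and Steap3 is on chromosome 1.

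The promoters of Steap4 and Cp are shown because these genes had the widest ratios of the 10. Each line gives the 250 bases before the RefSeq start on GRCm38.p6, with Steap4 at chr5:7960222-7960471 and Cp at chr3:19956804-19957053, both on the plus strand. Capitals mark matches, on either strand, to 5 motifs: TTCNNNGAA of STAT factors, TTGCNNAA of C/EBP factors, ACGTG of the hypoxia response, TGACNNNGC of the antioxidant response and TGCGCNC of the metal response.
Steap4 promoter: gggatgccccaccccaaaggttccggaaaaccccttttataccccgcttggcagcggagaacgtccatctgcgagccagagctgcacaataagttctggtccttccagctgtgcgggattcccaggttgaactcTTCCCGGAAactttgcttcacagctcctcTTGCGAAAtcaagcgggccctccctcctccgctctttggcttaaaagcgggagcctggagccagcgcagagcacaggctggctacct
Cp promoter: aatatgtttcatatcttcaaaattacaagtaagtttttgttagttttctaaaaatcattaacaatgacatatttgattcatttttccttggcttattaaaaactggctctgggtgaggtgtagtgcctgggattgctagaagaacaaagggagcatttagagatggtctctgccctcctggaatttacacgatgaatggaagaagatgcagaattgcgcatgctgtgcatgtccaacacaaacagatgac
Steap4 held 1 match to the STAT motif, which 7.05% of 27025 promoters of the same length hold, and 1 to the C/EBP motif, which 9.57% hold, and these matches do not overlap. Fth1 held 2 matches to the C/EBP motif, Tfrc and Steap1 the metal motif (12.6% of promoters) and Steap2 the antioxidant motif (10.2%). None of the 8 members with a promoter in the table held the hypoxia motif (16.5%). Cp, Ftl1 and Steap3 held none of the 5, and Slc40a1 and Slc11a2 were not searched. For Steap3 the RefSeq start used lies 1625 bases from the deposited gene start, so the bases before that gene start were not searched.

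Set against all genes, 3 of the 10 (Slc40a1, Cp and Steap4) had 5 RPKM or more in heart and differed at least 2-fold in its favour, and 2 (Tfrc and Ftl1) did so in favour of bone marrow. The same rule took 7.56% of 7659 genes in favour of heart and 9.51% in favour of bone marrow, the base being genes with 5 RPKM or more in either library. The members were chosen with this contrast known, so the counts describe them only. The median log2 ratio of the 10 was 0.26, beside -0.15 over the 7659. By log2 ratio, 7 of those genes lay above Cp, 12 above Steap4 and 62 above Slc40a1, and 169 lay below Tfrc. The heart share of all 2-fold genes was 44.3%, and it was 54.7% with the median ratio set to 0, a scaling that adds 0.15 to the log2 ratios of abundant genes.

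**Figure D2:**
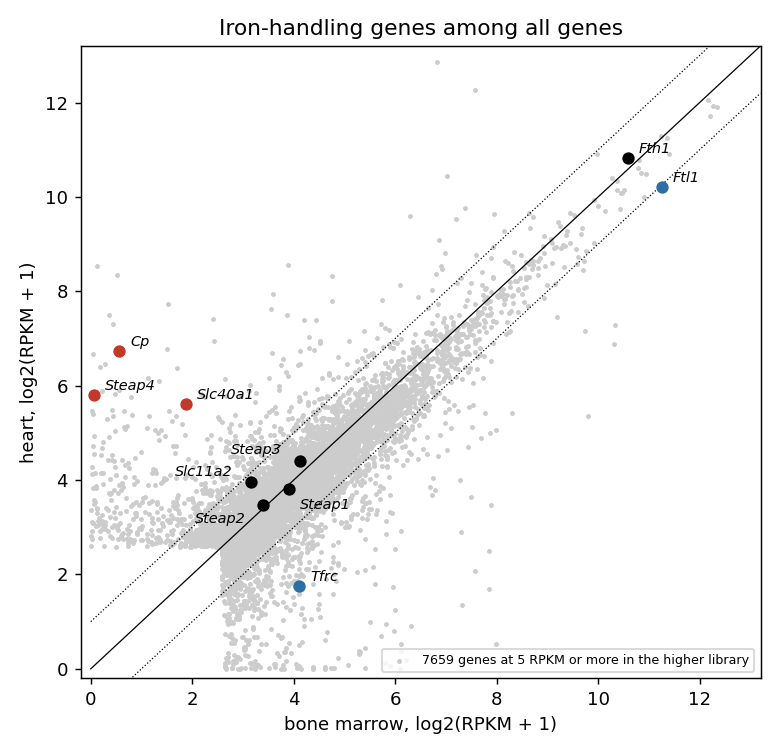
Level in heart against level in bone marrow, both as log2(RPKM + 1), for 7659 genes (grey) and the 10 iron genes (red, 2-fold higher in heart; blue, 2-fold higher in bone marrow; black, neither). The solid line marks equality and the dotted lines mark 2-fold; Cp, Steap4 and Slc40a1 stand far above them and Ftl1 lies on the lower one.

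Genes with the most similar pair of levels were found by distance on log2(RPKM + 1) over the 2 libraries. Nearest to Steap4 were Olr1, which encodes a scavenger receptor for oxidized lipoprotein, at 55.6 RPKM in heart and 0.0259 RPKM in bone marrow (distance 0.038), Ace (0.069) and Plac8 (0.18). Nearest to Cp were Pi15 (0.38), Calcrl (0.50) and Ccl11 (0.51). Among the nearest to Slc40a1 were the nuclear receptor gene Nr2f1 (0.31) and the cholesterol exporter gene Abca1, at 42.9 RPKM in heart and 1.91 RPKM in bone marrow (0.36). Among the nearest to Tfrc were Fosl1 (0.046) and the DNA methylation factor gene Uhrf1, at 2.22 RPKM in heart and 17.0 RPKM in bone marrow (0.090). The abundant Ftl1 had Rplp1 (0.42), Sparc (0.51) and mt-Nd4 (0.61) nearest. With 2 libraries a pair of levels is all that is compared.

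The flanking genes mostly differed less than the members, which were picked for being 2-fold apart. Over all genes with 5 RPKM in either library, only 7.56% passed the rule toward heart and 9.51% toward bone marrow. Flanking genes under 5 RPKM in both libraries could not meet it. The nearest 2 genes above 0.1 RPKM in either library were read on each side of the 5 members that were 2-fold apart. On 1 side of Slc40a1, Wdr75 (84.4 kb away) and the collagen gene Col5a2 (405 kb away) had log2 ratios of -0.52 and -0.70. Slc40a1 itself had 3.74, and Dnah7b and Gm8326 on its other side were below 1 RPKM in both libraries. At 63.9 kb from Steap4, the calcium-binding protein gene Sri stood at 17.0 RPKM in heart and 16.9 RPKM in bone marrow. The nearest gene read on the other side of Steap4 lay 2177 kb away. At 113 kb from Cp, the glycogenin gene Gyg stood at 47.7 RPKM in heart and 22.5 RPKM in bone marrow. Pde7a, 646 kb away on the other side, stood at 5.48 RPKM in heart and 2.11 RPKM in bone marrow. The log2 ratios of Gyg and Pde7a were 1.05 and 1.06, while the nearer Hltf had -0.03. The apoptosis gene Bax, 1.81 kb from Ftl1, was 2-fold higher in bone marrow as well, at 40.1 RPKM in heart and 94.4 RPKM in bone marrow, and Gys1 on the other side, 1.32 kb away, had -0.10. None of the other flanking genes met the rule, with Tfrc's neighbours Pcyt1a and Tnk2 at -0.26 and -0.54.

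Beyond the 10, 104 further genes of iron, haem and copper handling were read in 9 lists. Of 66 with 5 RPKM or more in either library, 9 (13.6%) passed the 2-fold rule toward heart, 8 (12.1%) passed it toward bone marrow and 49 did not pass, beside the background of 7.56% and 9.51% given above. Their median log2 ratio over 85 genes at or above 1 RPKM was -0.16, and that of all 11355 such genes was -0.11. The heart count depended on the pseudocount, with 5 genes at a pseudocount of 5. There Slc22a17, Bdh2, Cyb561a3 and Atp7a, named below, missed the rule, at log2 ratios of 0.64, 0.67, 0.84 and 0.73.

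Among other uptake genes, the second transferrin receptor gene Tfr2 went the way of Tfrc. It had 2 reads in heart and 1589 in bone marrow, or 0.00711 RPKM in heart and 6.79 RPKM in bone marrow, a ratio of 954 toward bone marrow (264 to 7888). Slc22a17, which encodes the lipocalin-2 receptor, and Bdh2, which encodes an enzyme for a mammalian siderophore, had log2 ratios of 1.22 and 1.15. The other 3 of the 6 genes at 5 RPKM were neither. Of the 6, 33.3% passed the rule toward heart and 16.7% toward bone marrow, beside 7.56% and 9.51% of all genes. Among the 3 was Lrp1, which takes up haem bound to hemopexin, at 205 RPKM in heart and 164 RPKM in bone marrow. Trf, the transferrin gene itself, had 6 reads in heart and was listed at 0 in bone marrow.

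Other reductases went toward heart or stayed within 2-fold. Of 4 at 5 RPKM, 2 (50%) passed the rule toward heart, beside 7.56% of all genes. Cyb561, which encodes a cytochrome b561 of secretory vesicles, stood at 7.20 RPKM in heart and 0.0811 RPKM in bone marrow (1707 and 16 reads), 88.8-fold higher in heart (54.5 to 156). Cyb561a3, its lysosomal relative, had a log2 ratio of 1.19, while Cyb561d2 had -0.69 and the ferric reductase gene Frrs1, the most abundant, had 0.29. The duodenal reductase gene Cybrd1 stood at 0.020 RPKM in heart and 0.010 RPKM in bone marrow. The membrane ferroxidase gene Heph, a relative of Cp, also went toward heart, at 1.18 RPKM in heart and 0.00967 RPKM in bone marrow (588 and 4 reads), under the floor of 5 RPKM.

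The iron sensing list also holds general ubiquitin ligase and mRNA decay genes. Most of its genes were within 2-fold, as were most of all genes. Of its 8 genes at 5 RPKM, 7 passed the rule in neither direction. Toward heart, 1 (12.5%) passed it, beside 7.56% of all genes. Among the 7, the iron regulatory protein genes Aco1 and Ireb2 had log2 ratios of -0.42 and 0.42. The iron-sensing ubiquitin ligase gene Fbxl5 had 0.67. The exception was Zfp36l1, which encodes an mRNA decay factor, at 85.8 RPKM in heart and 16.0 RPKM in bone marrow. Zc3h12a, which encodes an RNA-cleaving enzyme, had a log2 ratio of 1.05 just under the floor of 5 RPKM, and it passed the rule toward heart under each of the 3 scalings tried. Of 5 storage and chaperone genes, 4 were neither, with the iron chaperone gene Pcbp1 at -0.63 and the ferritinophagy receptor gene Ncoa4 at 0.24, and the heat shock gene Hspb1 was higher in bone marrow, at 8.70 RPKM in heart and 48.5 RPKM in bone marrow (-2.35). Of 15 mitochondrial iron and iron-sulfur cluster genes, 14 were neither and 1, the glutaredoxin gene Glrx5, was higher in bone marrow (-1.17). Hspb1 and Glrx5 are 20% and 6.67% of their lists at 5 RPKM, beside 9.51% of all genes. In the mitochondrial list, Nfu1 and the iron importer gene Slc25a28 had -0.86 and 0.82. The most abundant gene of that list was the chaperone gene Hspa9 (-0.66), and the list median was -0.35.

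**Figure D3:**
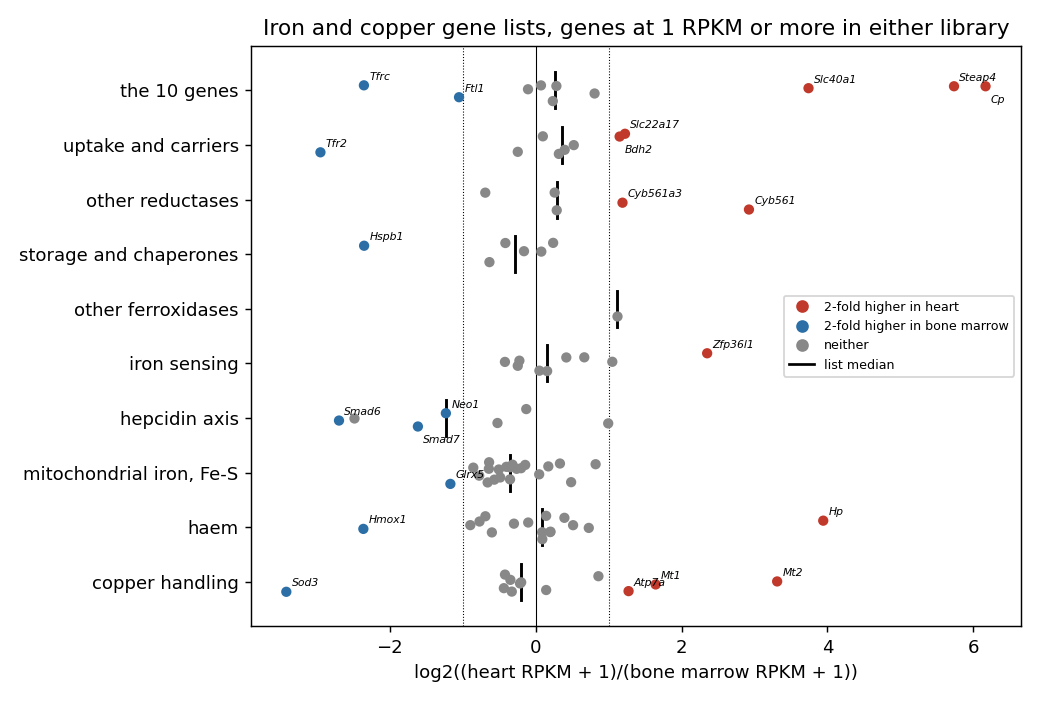
Log2 ratio of heart over bone marrow for each gene at or above 1 RPKM in either library, by list, with red for 2-fold higher in heart, blue for 2-fold higher in bone marrow, grey for genes within 2-fold or under 5 RPKM and a bar at the list median. Mitochondrial iron genes gather around their median of -0.35, while the haem and copper lists have named genes far out on both sides. In the uptake list Tfr2 is far out toward bone marrow.

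In the hepcidin axis 3 of 5 genes at 5 RPKM were higher in bone marrow, where 9.51% of all genes were, namely the inhibitory Smad genes Smad6 and Smad7 (-2.70 and -1.61) and the BMP co-receptor gene Neo1 (-1.23). Bmpr1a, a BMP receptor gene and the most abundant of the list, stood at 46.5 RPKM in heart and 22.9 RPKM in bone marrow, a ratio of 2.04 (1.98 to 2.09). Its log2 ratio of 0.99 missed the rule at a pseudocount of 1 and passed it toward heart at a pseudocount of 0.1 (1.02) and under each of the 3 scalings (1.09 to 1.14). Hamp, the hepcidin gene, was listed at 0 in both libraries, as were Hamp2 and Hjv of the same list. Bmp6 stood at 0.141 RPKM in heart and 0.0999 RPKM in bone marrow, and Tmprss6 at 0.029 RPKM in heart and 0 RPKM in bone marrow. Erfe, just under the floor of 5 RPKM, stood at 0.0219 RPKM in heart and 4.72 RPKM in bone marrow (4 and 717 reads). The log2 ratio of Erfe was -2.48. Of 12 haem genes at 5 RPKM, 10 were neither and 1 (8.33%) passed the rule in each direction. Among all genes 7.56% passed it toward heart and 9.51% toward bone marrow. Hmox1, which releases iron from haem, stood at 41.6 RPKM in heart and 218 RPKM in bone marrow (-2.36). Hp, which encodes the haemoglobin-binding haptoglobin, stood at 20.0 RPKM in heart and 0.369 RPKM in bone marrow (3.94), and the haem synthesis gene Cpox had -0.90.

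Copper genes were read because STEAP proteins also reduce copper and ceruloplasmin carries it. Of 11 at 5 RPKM, 3 (27.3%) passed the rule toward heart and 1 (9.09%) toward bone marrow. Over all genes the shares were 7.56% toward heart and 9.51% toward bone marrow. The metallothionein genes Mt2 and Mt1, whose products bind zinc and copper, had 772 and 371 RPKM in heart, against 76.9 and 118 RPKM in bone marrow. Atp7a, which encodes the pump that loads copper onto secreted enzymes, was the third, at 7.44 RPKM in heart and 2.49 RPKM in bone marrow. It was named after its value was seen. Sod3, an extracellular copper and zinc enzyme gene, was higher in bone marrow (-3.42).

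**Figure D4:**
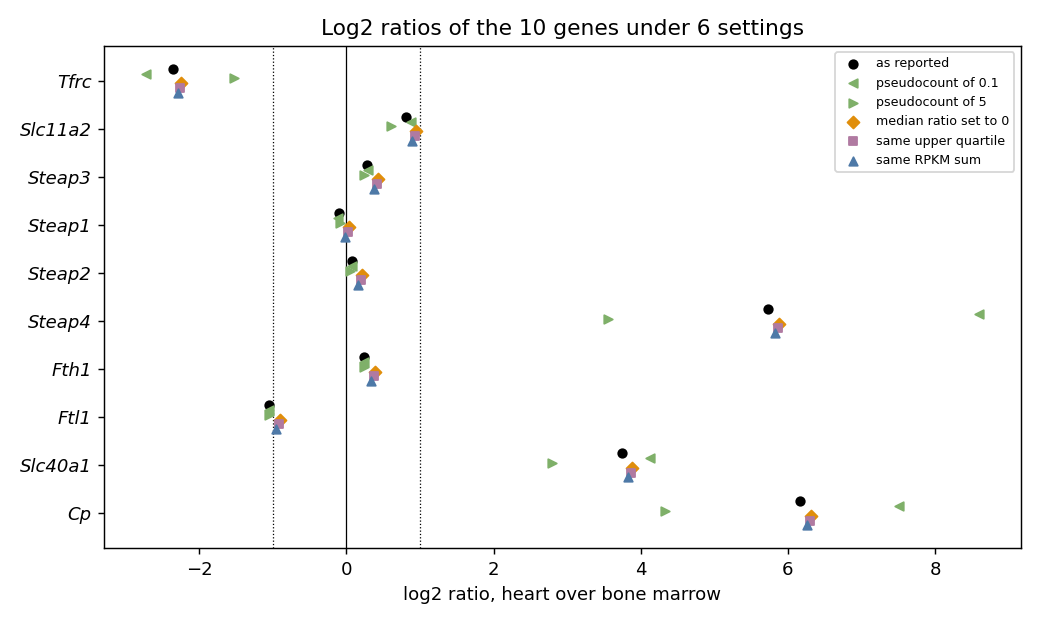
Log2 ratio of heart over bone marrow of the 10 genes as reported and under 2 other pseudocounts and 3 scalings. Slc40a1, Cp, Steap4 and Tfrc stay beyond 2-fold in all 6 settings, Ftl1 moves to 0.90 below equality when the median ratio is set to 0, and Steap1 lies on both sides of equality.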

How the data were processed

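Libraries were made from 1 ug of total RNA by standard Illumina methods, per the labels' protocols. The authors deposited RPKM values, per the file headers, in 49585 gene rows. For the aligner, the counting tool and strand the answer is not given in the sources used here, and overlapping and antisense genes cannot be told apart. The submitters' processing notes name the build mm8, yet 45149 rows (91.1%) match GENCODE M21 gene models on GRCm38, on which coordinates are read.

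Reads were recovered as whole multiples with exon-union lengths: 86.2% of 14247 genes above 0 in both libraries were whole within 0.02 reads. For 8 members the M21 length fitted. For Fth1 and Slc40a1, 2 lengths each gave whole reads in both libraries (tolerance 0.0005), and the smaller (866 and 6761 bases) was used. The read numbers and intervals of these genes rest on that choice. Ratios have exact conditional (Clopper-Pearson) 95% intervals, which cover counting error only, as the reads carry no molecular identifiers and may not be independent. No test was possible with 1 library per tissue.

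Repeated symbols were represented by their highest row. The ratio is log2((heart + 1)/(bone marrow + 1)), and a gene counted as apart at 2-fold or more with 5 RPKM in the higher library. The members and lists were chosen with earlier results of these data known. Named were all members, up to 3 genes per list with the largest ratio at 5 RPKM, each list's most abundant gene, flanking genes and nearest genes, some of which are not reported here. Aco1, Ireb2, Ncoa4, Fbxl5, Cybrd1, Trf, Hamp, Hamp2, Hjv, Bmp6, Tmprss6, Atp7a, Heph, Zc3h12a, Erfe and the cell markers stand outside or beside that rule. Promoters are from RefSeq (GRCm38.p6) and transcripts from GENCODE M21. Pseudocounts, floors, thresholds, summed rows and scalings were varied. Tools were scipy 1.17.1, pandas 2.3.3, numpy 2.4.6 and matplotlib 3.10.9 under Python 3.11.15, tested on simulated data.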

Additional observations from a re-analysis of the deposited data

How the results depend on the processing

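Slc40a1, Cp, Steap4 and Tfrc kept their direction and stayed at least 2-fold apart under each pseudocount, scaling, floor and row setting tried, and also at a 4-fold threshold. Over pseudocounts, scalings and summed rows their log2 ratios ranged from 2.79 to 4.12 for Slc40a1, 4.33 to 7.51 for Cp, 3.56 to 8.59 for Steap4 and -2.72 to -1.53 for Tfrc. Members higher in bone marrow numbered 1 in place of 2 with the median ratio set to 0, the same upper quartile, the same RPKM sum or a 4-fold threshold, since Ftl1 then missed the rule. Other iron genes higher in heart numbered 5 at a pseudocount of 5 and 4 at the 4-fold threshold, in place of 9, and those higher in bone marrow numbered 5 at that threshold in place of 8. No paired analysis was possible because each tissue has 1 library. Depth limits Steap4 in bone marrow (7 reads) and Tfr2 in heart (2 reads).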
